A study of Arabidopsis thaliana with 36 samples.

Results

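The 54 genes described here were lower in rosettes of Arabidopsis thaliana after 3 days at 4 °C (ACC) than in plants kept warm (NonA), and stood above that warm level after 2 days (Deacc2) and 4 days (Deacc4) back in the warm. They were picked from 34262 genes by those values. Counts scaled to a common total over gene rows in each library (CPM) were averaged as log2(CPM + 1) over the 9 libraries of each condition, all lines together. A gene was taken if its ACC mean was at least 1 below its NonA mean and its Deacc2 and Deacc4 means were each at least 0.8 above it, and organellar genes were left out. Of the 34262 genes, 1524 had the low ACC mean, and of these 84 passed the threshold at Deacc2, 95 passed it at Deacc4 and 54 passed both. Differences between conditions in these 54 genes therefore follow from the choice and are given as a description without a test. Comparisons between plant lines did not enter the choice and are tested.

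Whole rosettes of the mutant lines mbf1c and jub1 and of the wild type Col0 were sequenced in 36 libraries, 3 for each line at each condition. The line names refer to MBF1C (AT3G24500), a heat-associated transcriptional coactivator, and JUB1 (AT2G43000), a NAC transcription factor linked to longevity; the labels give no allele for either line. All plants were 28 days old at the start and stood 10 to a pot. This makes ACC, Deacc2 and Deacc4 plants older than NonA plants at harvest. The warm chamber had 20 °C days, 16 °C nights, 16 h of light and 200 µE per m2 and s. Cold was given at 90 µE per m2 and s with the same day length. The temperature, the light and the plant age of ACC therefore cannot be told apart, nor can time after cold and plant age. The titles number the 3 libraries of a group as Exp 1 to 3 in every line and condition, so a number names an experiment that the lines share. They do not say whether the experiments were sown separately, so p-values measure only the spread between these samples, which may be technical.

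Plants that are moved to low, non-freezing temperatures build up sugars and other protective compounds and slow their growth, and they give up this state when it becomes warm again. Many leaf genes are held down by sugar and switched on by darkness or starvation, among them genes for wall sugar release, asparagine synthesis and nitrogen salvage. A second large set of leaf genes follows the defence hormone salicylate, whose level reacts to temperature. Both kinds of gene, together with genes of leaf ageing, are found among the 54.

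Libraries held 14407060 to 63178347 counts in genes, and 21324 to 23256 genes were detected in each. As a check of the lines, the log2 difference from Col0 over the 4 conditions was −1.73 ± 0.18 for MBF1C in the mbf1c libraries (SE, edgeR adjusted p = 1.2e-06). For JUB1 in the jub1 libraries it was −2.29 ± 0.33 (SE, edgeR adjusted p = 0.000779). The 10 leaf marker genes (small subunit and activase of Rubisco, antenna and photosystem proteins) summed to 74480 to 102923 CPM at NonA, 23774 to 52143 CPM at ACC, 68103 to 99684 CPM at Deacc2 and 67883 to 92132 CPM at Deacc4. The 7 floral markers summed to 1.41 to 7.82 CPM and the 6 root markers to 0.239 to 1.33 CPM over all libraries. Expression also followed transcript length differently between libraries, with a slope of log2 CPM per doubling of length of −0.33 ± 0.29 in NonA, 0.27 ± 0.16 in ACC, 0.07 ± 0.27 in Deacc2 and −0.01 ± 0.29 in Deacc4 libraries (SD, n = 9 each). The 54 genes had a median exonic length of 1624.5 bases, against 1853 for the 13406 protein-coding genes of at least 5 CPM on average. With each library's length trend taken out, 48 genes met the rule, 32 of them among the 54, and the Deacc2 difference of AT5G40450 turned to −0.29. The part of the leaf markers in the ACC values was not tested. In whole rosettes, fewer cells of a type and less RNA per cell cannot be told apart. Scaling the libraries by TMM in place of total counts moved the median ACC difference of the 20679 genes kept for testing to 0.03, against 0.30 with total counts, and the median over the 54 genes to −1.66, against −1.30.

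Promoter sequence was examined next, because genes that are switched off by sugar often carry short elements near their start. The 250 bases before the annotated start of each of the 54 genes were read from the TAIR10.1 assembly. The element TATCCA, known from sugar-starved rice amylase promoters, occurred on either strand in 16 of the 54 (29.6%) and in 13.6% of 27443 promoters of the same length. It was found in 4 of the 10 promoters of the sugar and nitrogen genes and in 3 of the 12 of the defence genes. The ASN1 window, 1 of the 4, holds 136 exonic bases of another gene. Windows of 11 of the 54 genes hold such bases. Below are 6 of the 16, from a sugar carrier, a glycerol kinase, 3 salicylate-linked genes and a copper protein, with the match in capitals (TGGATA is the match on the other strand). None of these 6 windows holds an annotated exon of any gene, and each holds 1 match.
STP1 (AT1G11260), chr1:3776986-3777235, plus strand: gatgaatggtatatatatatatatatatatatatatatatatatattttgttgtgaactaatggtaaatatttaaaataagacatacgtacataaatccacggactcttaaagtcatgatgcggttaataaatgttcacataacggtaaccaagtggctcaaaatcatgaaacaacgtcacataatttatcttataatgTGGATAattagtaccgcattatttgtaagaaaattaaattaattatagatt
NHO1 (AT1G80460), chr1:30249338-30249587, minus strand: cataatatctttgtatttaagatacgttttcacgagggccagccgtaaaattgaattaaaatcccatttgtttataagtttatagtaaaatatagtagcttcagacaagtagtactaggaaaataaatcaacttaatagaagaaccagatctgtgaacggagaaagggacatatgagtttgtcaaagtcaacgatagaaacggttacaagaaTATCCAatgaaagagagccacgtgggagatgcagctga
ALD1 (AT2G13810), chr2:5768167-5768416, plus strand: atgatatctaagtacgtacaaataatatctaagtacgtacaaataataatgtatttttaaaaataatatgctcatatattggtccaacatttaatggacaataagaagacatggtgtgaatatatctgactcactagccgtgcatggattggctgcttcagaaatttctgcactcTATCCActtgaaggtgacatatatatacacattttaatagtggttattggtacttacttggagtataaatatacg
PNP-A (AT2G18660), chr2:8091737-8091986, minus strand: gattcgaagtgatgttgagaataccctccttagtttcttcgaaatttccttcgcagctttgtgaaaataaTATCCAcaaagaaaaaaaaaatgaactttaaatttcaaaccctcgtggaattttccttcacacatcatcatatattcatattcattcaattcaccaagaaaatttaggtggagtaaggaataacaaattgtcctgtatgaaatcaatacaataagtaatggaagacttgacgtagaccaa
BCB (AT5G20230), chr5:6826115-6826364, plus strand: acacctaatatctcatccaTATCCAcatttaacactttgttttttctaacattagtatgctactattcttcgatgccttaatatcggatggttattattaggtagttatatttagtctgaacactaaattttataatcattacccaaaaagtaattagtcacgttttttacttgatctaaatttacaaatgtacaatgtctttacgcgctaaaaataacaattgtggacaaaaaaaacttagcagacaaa
DMR6 (AT5G24530), chr5:8378509-8378758, plus strand: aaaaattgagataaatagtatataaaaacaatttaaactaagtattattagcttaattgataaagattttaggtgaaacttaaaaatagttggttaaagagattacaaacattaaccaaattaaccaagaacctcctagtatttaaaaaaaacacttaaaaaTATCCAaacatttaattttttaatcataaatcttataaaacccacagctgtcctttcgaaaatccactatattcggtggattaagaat
Of the 16 promoters, 6 held TTATCC at the same place, an element described for sugar-repressed Arabidopsis genes. TTATCC occurred in 11 of the 54 (20.4%) and in 12.5% of all promoters. ACGTG, the core of abscisic acid response elements, was in 20 of the 54 (37.0%) and in 22.9% of all, and CACGTG, the G-box that contains this core, in 5 (9.26%) and 6.49%. Elements typical of growth genes were less frequent: TGGGCC was in 4 (7.41%) against 13.7%, and AACCCTA in 1 (1.85%) against 6.56%. ACTCAT, linked to recovery from osmotic stress, was in 6 (11.1%) against 12.3%. TTGAC, the core bound by WRKY factors, was added after the genes were known and was in 29 (53.7%) against 44.9%. Other elements were searched as well. GATAAG was in 9 (16.7%) against 12.3%. AATATCT was in 8 (14.8%) against 10.0%. GAGATA was in 10 (18.5%) against 14.5%. CACATG was in 6 (11.1%) against 11.1%. CGTGTG was in 2 (3.70%) against 5.37%. All these shares describe letters in a window and carry no test.

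Averaged over the 54 genes, log2(CPM + 1) had a lowest, median and highest value of 3.67, 4.26 and 5.24 in the 9 NonA libraries, 2.29, 2.75 and 3.44 in the ACC libraries, 5.17, 5.63 and 6.00 in the Deacc2 libraries and 4.61, 5.62 and 6.33 in the Deacc4 libraries. All ACC libraries lay below all NonA libraries. All Deacc2 and Deacc4 libraries lay above all ACC libraries but overlapped the upper NonA libraries, of which Col0 replicate 2 was the highest.

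**Figure D1:**
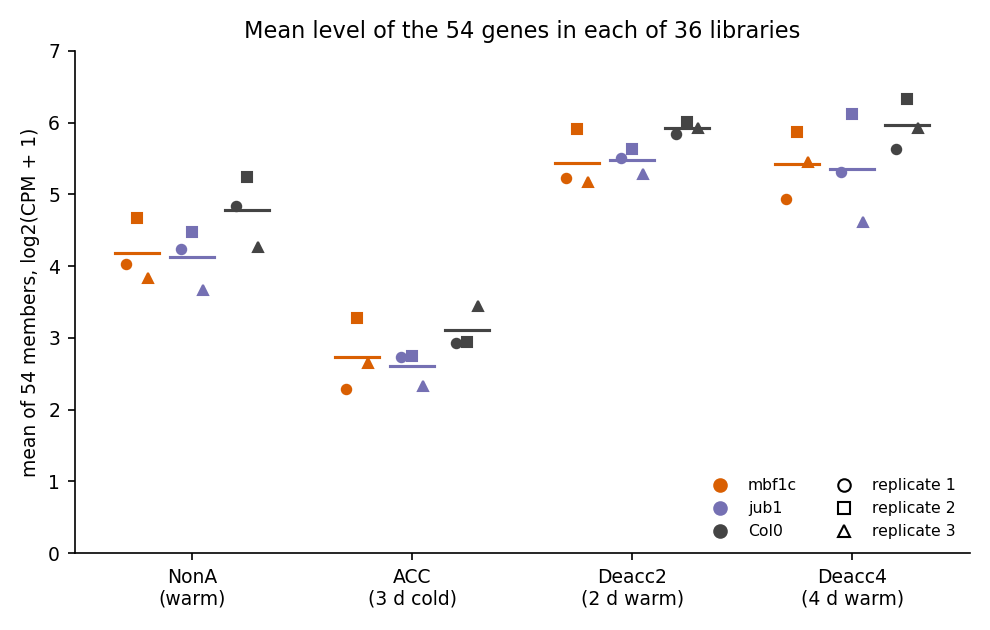
Mean log2(CPM + 1) of the 54 genes in each library (y axis) by condition (x axis). Colours mark the line, symbols the replicate number and bars the mean of 3 libraries. ACC libraries lie between 2.29 and 3.44 and Deacc2 libraries between 5.17 and 6.00, and the Col0 bar is the highest at each condition.

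Gene by gene, the ACC mean was below the NonA mean by a median of −1.30 (range −3.78 to −1.01). The Deacc2 mean was above it by 1.19 (0.80 to 2.07) and the Deacc4 mean by 1.17 (0.81 to 2.16). Over the 27072 detected nuclear genes the same medians were 0.04, 0.00 and 0.00. From Deacc2 to Deacc4 there was no common direction, as 22 genes were higher at Deacc4 and 32 lower, with a median difference of −0.06. In 21 genes all 9 ACC libraries lay below all 9 NonA libraries, where 7.2% of detected genes did so. All 9 Deacc2 libraries lay above all NonA libraries in 7 genes (0.469% of detected genes), and all 9 Deacc4 libraries in 1 gene (0.296%), AT4G32460, which encodes a cell wall protein of the DUF642 family. Deacc2 stood clear of ACC in 47 genes (7.35%) and Deacc4 in 43 (6.79%). Deacc4 lay wholly above Deacc2 in 0 of the 54 (0.0222% of detected genes) and wholly below it in 0 (0.0185%). These counts use the contrasts that chose the genes, and nothing is read from their distance to the background.

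**Figure D2:**
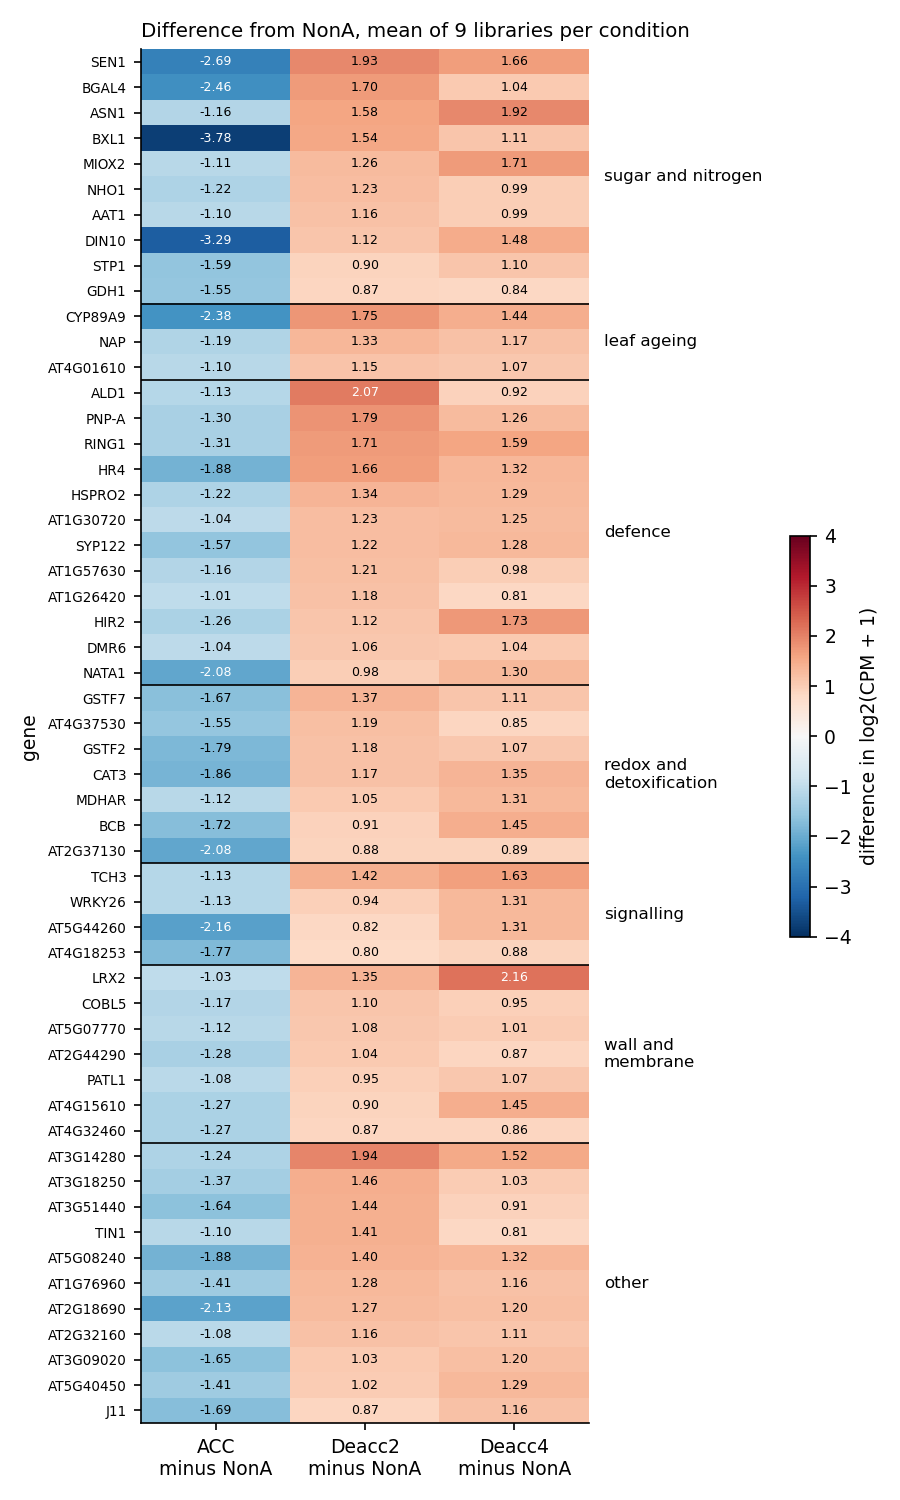
Difference of the ACC, Deacc2 and Deacc4 means from the NonA mean in log2(CPM + 1) for each of the 54 genes, 9 libraries per condition, grouped by role. Colour and printed value give the difference. The deepest ACC values, −3.78 for BXL1 and −3.29 for DIN10, belong to sugar and nitrogen genes, and the highest Deacc2 value, 2.07, to the defence gene ALD1.

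The 10 sugar and nitrogen genes had a median difference from NonA of −1.57 at ACC, 1.25 at Deacc2 and 1.1 at Deacc4. On the log2(CPM + 1) scale, BXL1, DIN10 and SEN1 among them had the 3 lowest ACC differences of all 54. The 1 added to CPM shrinks this difference in genes of few CPM, so the order partly follows abundance. From NonA to ACC, mean CPM went from 41.2 to 2.05 for BXL1, 42.3 to 2.84 for DIN10 and 7.79 to 0.288 for SEN1. SEN1 (AT4G35770), a dark-induced and sugar-repressed marker of ageing leaves, had a lowest, median and highest level of 2.68, 8.33 and 12.1 CPM at NonA, 0.115, 0.217 and 0.902 CPM at ACC, 10.2, 30.3 and 117 CPM at Deacc2 and 8.21, 23 and 59.9 CPM at Deacc4. It was close to silent in every ACC library. Its Deacc2 and Deacc4 libraries reached down into the NonA range. BXL1 (AT5G49360), a beta-xylosidase that trims wall polysaccharides, had 26, 37.7 and 62.5 CPM at NonA, 1.25, 1.56 and 4.83 CPM at ACC, 65.4, 152 and 238 CPM at Deacc2 and 34.6, 68.7 and 174 CPM at Deacc4. Here every Deacc2 library exceeded every NonA library, and the Deacc4 libraries overlapped them. BGAL4 (AT5G56870), a beta-galactosidase, followed the same course with mean differences of −2.46, 1.7 and 1.04, though 23.8% of its exonic bases are shared with a gene on the other strand that unstranded counting cannot separate.

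DIN10 (AT5G20250), a dark-inducible member of the raffinose synthase family, had 16.1, 31.2 and 112 CPM at NonA and 2.1, 2.61 and 4.84 CPM at ACC. At Deacc2 it had 28.9, 99.3 and 175 CPM, and at Deacc4 27.3, 92.5 and 241 CPM. The NonA value of 112 CPM came from mbf1c replicate 1, which stood above the medians of Deacc2 and Deacc4. ASN1 (AT3G47340), the asparagine synthetase that stores nitrogen when carbon is short, had 5.18, 8.29 and 28.1 CPM at NonA, 1.74, 3.88 and 5.71 CPM at ACC, 10.4, 27 and 70.5 CPM at Deacc2 and 13.2, 43.8 and 75.6 CPM at Deacc4. Its mean was higher at Deacc4 than at Deacc2, with differences from NonA of 1.92 and 1.58. GDH1 (AT5G18170), a glutamate dehydrogenase of nitrogen salvage, lay near the thresholds at 0.87 and 0.84. The amino acid carrier AAT1, with −1.1, 1.16 and 0.99, had at most 16.6 CPM in any library.

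STP1, the hexose carrier whose promoter is shown above, had 72.6, 92.8 and 146 CPM at NonA, 20.1, 25.9 and 55.4 CPM at ACC, 97.1, 176 and 296 CPM at Deacc2 and 103, 203 and 307 CPM at Deacc4. Its ACC libraries were apart from all NonA libraries, and 12.6% of its exonic bases are shared with an opposite gene. NHO1, a glycerol kinase needed for resistance to non-adapted bacteria, had mean differences of −1.22, 1.23 and 0.99. MIOX2, which opens myo-inositol toward wall precursors, had −1.11, 1.26 and 1.71 at a level of at most 23 CPM. Its median was 2.03 CPM at NonA and 0.462 CPM at ACC, where the 1 added to CPM shrinks the difference.

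Genes of leaf ageing and protein breakdown formed a group of 3. CYP89A9 (AT3G03470), a cytochrome P450 that modifies chlorophyll breakdown products, had 22.5, 33.8 and 58.5 CPM at NonA, 2.76, 6.02 and 9.20 CPM at ACC, 73.7, 126 and 153 CPM at Deacc2 and 48.3, 93.7 and 162 CPM at Deacc4. Its ACC libraries lay below and its Deacc2 libraries above all NonA libraries, and the Deacc4 libraries overlapped NonA. NAP (AT1G69490), a NAC factor that promotes leaf ageing, had mean differences of −1.19, 1.33 and 1.17. AT4G01610, a cathepsin B-like protease, had −1.1, 1.15 and 1.07.

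The 12 defence genes had a median ACC difference of −1.24 and a median of 1.23 at Deacc2 and 1.27 at Deacc4. RING1 (AT5G10380), a membrane-bound ubiquitin ligase of pathogen-induced cell death, had 37.4, 64.2 and 156 CPM at NonA, 11.3, 30.3 and 53.2 CPM at ACC, 123, 219 and 405 CPM at Deacc2 and 64.8, 244 and 434 CPM at Deacc4. Its ranges at ACC and NonA overlapped, as they did in each of the 12 defence genes. HR4 (AT3G50480), a homologue of the powdery mildew resistance protein RPW8, had a median of 108 CPM at NonA, 26.2 CPM at ACC, 280 CPM at Deacc2 and 254 CPM at Deacc4. HSPRO2 (AT2G40000), which binds the energy-sensing kinase SnRK1 and adds to basal resistance, had 9.77, 17.8 and 29.2 CPM at NonA, 4.08, 6.44 and 10.2 CPM at ACC, 30.2, 42.8 and 65.0 CPM at Deacc2 and 20.9, 45.3 and 77.7 CPM at Deacc4. All of its Deacc2 libraries exceeded all of its NonA libraries.

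ALD1 (AT2G13810), which makes the precursor of the immune signal pipecolic acid, had 0.16, 4.03 and 11.1 CPM at NonA, 0.0657, 0.724 and 3.55 CPM at ACC, 0.453, 21.8 and 39.3 CPM at Deacc2 and 0.518, 8.55 and 15.1 CPM at Deacc4. It had the largest excess of the 54 at Deacc2, 2.07, and 0.92 at Deacc4. In Col0 alone its Deacc4 mean was not above NonA (−0.06). Its lowest value at NonA, Deacc2 and Deacc4 came each time from mbf1c replicate 1. PNP-A (AT2G18660), a secreted natriuretic-type peptide, had mean differences of −1.30, 1.79 and 1.26, and DMR6 (AT5G24530), which hydroxylates salicylate and so lowers it, −1.04, 1.06 and 1.04. Other defence members were the syntaxin SYP122 (−1.57, 1.22 and 1.28), the hypersensitive-response protein HIR2 (−1.26, 1.12 and 1.73) and the ornithine acetyltransferase NATA1 (−2.08, 0.98 and 1.30). For HIR2, 23.3% of exonic bases are shared with an opposite gene. AT1G57630, a TIR-domain protein, and the berberine bridge enzyme-like AT1G30720 and AT1G26420 had Deacc2 differences of 1.21, 1.23 and 1.18.

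**Figure D3:**
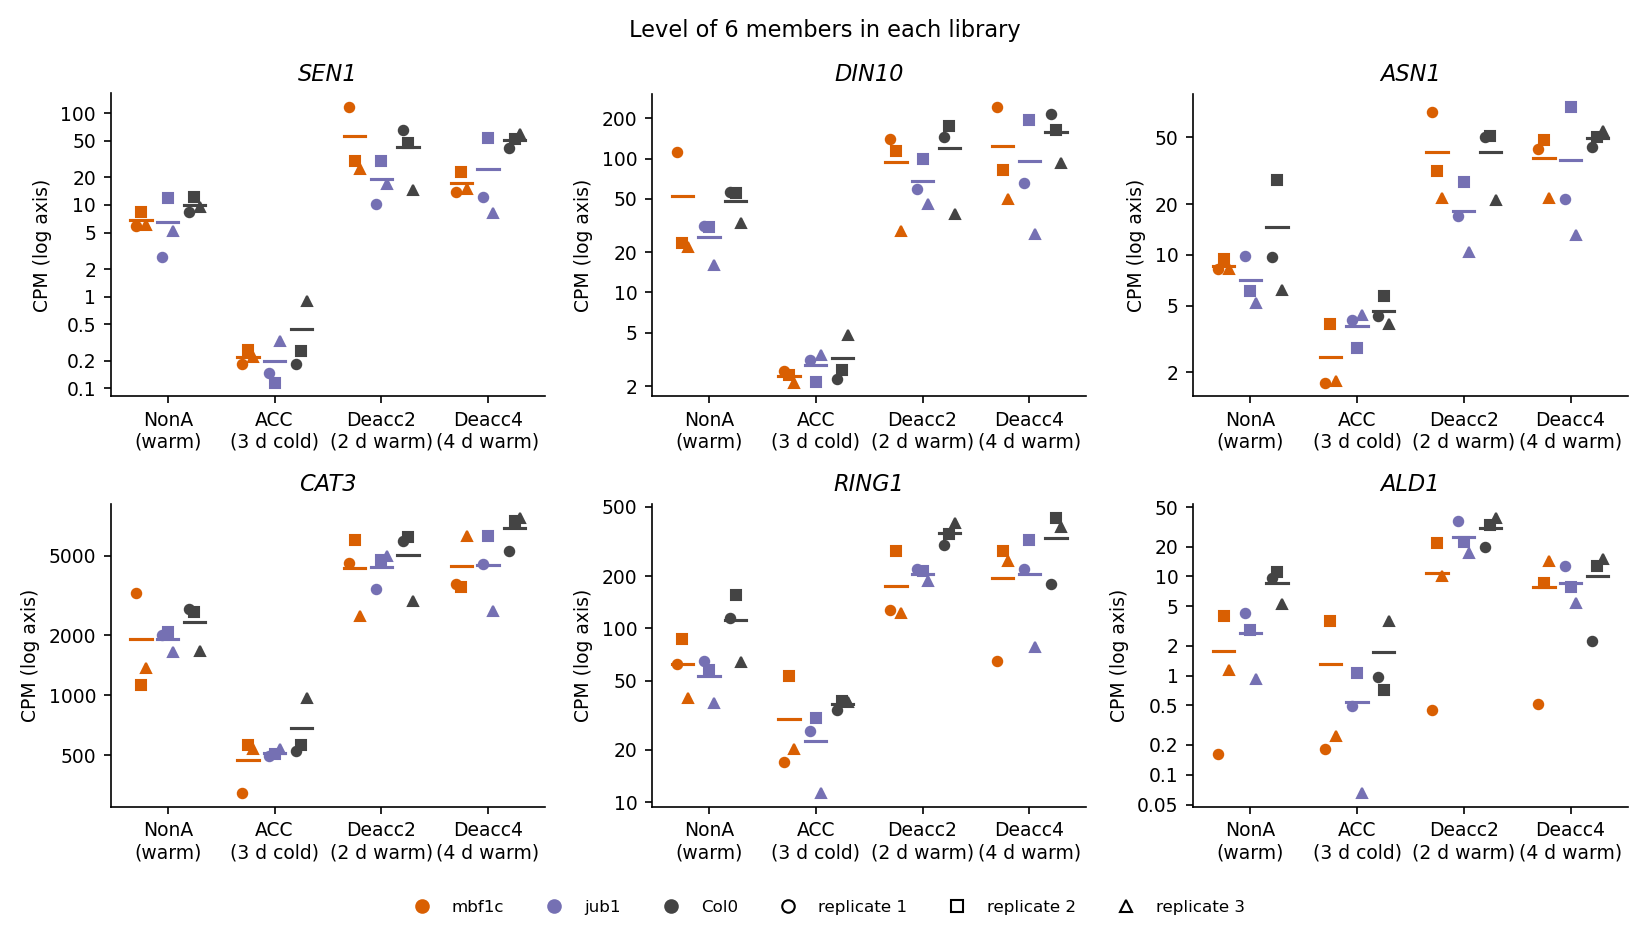
CPM of SEN1, DIN10, ASN1, CAT3, RING1 and ALD1 in each of 36 libraries (y axes, log scale) by condition (x axes). Colours mark lines, symbols replicate numbers and bars the mean of 3 libraries. SEN1 is at or below 0.902 CPM in all ACC libraries, and ALD1 in mbf1c replicate 1 stays at or below 0.518 CPM in all 4 conditions.

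Among 7 genes of redox control and detoxification, the median differences were −1.72 at ACC, 1.17 at Deacc2 and 1.11 at Deacc4. CAT3 (AT1G20620), a catalase that removes hydrogen peroxide, had a lowest, median and highest level of 1129, 1994 and 3245 CPM at NonA, 323, 534 and 968 CPM at ACC, 2488, 4746 and 6188 CPM at Deacc2 and 2643, 5308 and 7780 CPM at Deacc4. Its ACC libraries lay clear of NonA, while 1 or more libraries of each deacclimation time lay within the NonA range. The glutathione S-transferases GSTF7 (−1.67, 1.37 and 1.11) and GSTF2 (−1.79, 1.18 and 1.07) had like differences, with 60.5% of GSTF2's exonic bases shared with an opposite gene. BCB, the blue copper protein whose promoter is shown, had −1.72, 0.91 and 1.45, and the ascorbate-recycling MDHAR −1.12, 1.05 and 1.31. The secreted peroxidases AT2G37130 and AT4G37530 had 0.88 and 1.19 at Deacc2 and 0.89 and 0.85 at Deacc4.

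The 4 signalling genes were each higher at Deacc4 than at Deacc2. TCH3 (AT2G41100), a touch-induced calmodulin-like protein, had mean differences of −1.13, 1.42 and 1.63, with 20.2% of its exonic bases shared with opposite genes. The zinc finger gene AT5G44260 had −2.16, 0.82 and 1.31, the heat-associated factor WRKY26 −1.13, 0.94 and 1.31, and the kinase-like AT4G18253 −1.77, 0.80 and 0.88. The 7 wall and membrane genes had the median ACC difference nearest to 0 on the log2(CPM + 1) scale, −1.17. LRX2, an extensin-like wall protein, had −1.03, 1.35 and 2.16, the largest Deacc4 value of the 54. It had 0.444, 1.01 and 7.05 CPM at NonA, 0.0657, 0.13 and 0.381 CPM at ACC and 1.85, 9.6 and 47.2 CPM at Deacc4. At such low levels the 1 added to CPM makes the ACC difference smaller than the fall in CPM itself. PATL1, a lipid-binding protein of dividing cells, had −1.08, 0.95 and 1.07.

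The remaining 11 genes had a median ACC difference of −1.41. AT3G14280 (−1.24, 1.94 and 1.52) and AT5G08240 (−1.88, 1.40 and 1.32) met the thresholds in every line. J11, a plastid DnaJ co-chaperone, had −1.69, 0.87 and 1.16, and AT2G18690 −2.13, 1.27 and 1.20. TIN1, named for its induction by tunicamycin, had −1.1, 1.41 and 0.81 and met the rule in no single line. None of the 54 genes had a near-identical copy, taken as a transcript match of at least 95% identity over at least 200 bases. Reads shared with less close relatives were not examined. The genes lay on chromosomes 1 to 5 with 11, 10, 10, 9 and 14 genes. Only PNP-A with AT2G18690 and BCB with DIN10 lay within 10 genes of each other, and none were adjacent.

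The edges of the set were not sharp. AT1G26420, at −1.01 and 0.81 at Deacc4, LRX2, at −1.03, and DMR6, at −1.04, lay just inside the ACC threshold. MSRB8 (−0.99), the salicylate hydroxylase gene AT4G10500 (DLO1, −0.99) and the vacuolar protease gene GAMMA-VPE (−0.97) lay just outside it. Their Deacc2 differences were 1.68, 2.09 and 1.05. At the Deacc2 threshold, AT4G18253 (0.80) and AT5G44260 (0.82) were just inside and FAR1 (0.79) and AT5G25440 (0.78) just outside. At the Deacc4 threshold, TIN1 (0.81) was inside and SDR3 (0.77), AT1G24145 (0.77) and TAT3 (0.77) outside. The genes outside the set whose levels over the 36 libraries were most like the mean of the set were AT1G27100, PUT1, TPP, AT5G18490 and ATI2, with Pearson's r of 0.979, 0.979, 0.976, 0.972 and 0.972 among 13431 genes of at least 5 CPM. These r values share libraries and conditions and are a description.

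The rule was met in mbf1c alone by 38 of the 54 genes, in jub1 alone by 38 and in Col0 alone by 38. It was met in all 3 lines by 19, in 2 lines by 23, in 1 line by 11 and in no line by TIN1. The 19 were SEN1, DIN10 and NHO1 of the sugar and nitrogen genes, CYP89A9, RING1, HSPRO2, PNP-A, SYP122, HIR2 and NATA1, CAT3, GSTF2 and BCB, AT5G07770, and 5 genes of other roles. A lower ACC mean with both later means higher was seen for 54 genes in mbf1c, 54 in jub1 and 53 in Col0, the exception being ALD1. Within replicate numbers the thresholds were met by 24, 29 and 20 genes for numbers 1, 2 and 3. The direction held for 53, 54 and 53. The counts by line and by number use the libraries that chose the genes, so they largely follow from the choice. The median ACC difference was −1.66 for number 1, −1.7 for number 2 and −0.93 for number 3.

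Within groups of 3 libraries, the genes also deviated together. Over all pairs of the 54, the median Pearson's r of deviations from the group means across the 36 libraries was 0.451, against 0.197 for pairs of the 13466 nuclear genes of at least 5 CPM. It was 0.708 among defence genes and 0.594 among sugar and nitrogen genes, but 0.294 between these 2 roles. Wall and membrane genes had 0.078 among themselves. These values come from the same libraries for every pair and carry no test.

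Other genes of the same pathways were taken from lists chosen with earlier results of these data known. Further lists covered amino acid breakdown, wall growth, wall hydrolases, gibberellin, brassinosteroid, auxin and cytokinin, clock, B-box, sugar transport and nitrogen genes. Still others covered heat shock, jasmonate, glucosinolate and sulfur, and touch or rapid stress genes. Counts for these further lists are not given here. Of 31 genes of sugar starvation, 6 belong to the 54 (SEN1, ASN1, DIN10, BXL1, BGAL4 and GDH1). Of the 23 others that could be tested, 18 fell at ACC relative to NonA and none rose (35.3% and 35.1% of all 20679 genes tested fell and rose, edgeR adjusted p under 0.05). At Deacc2, 7 rose and 3 fell (19.9% and 20.8% of all), and at Deacc4, 8 rose and 2 fell (19.4% and 21% of all). The 3 most abundant of these others were the dormancy-associated DRM2 and DRM1 and the peptide gene GASA6. At ACC, GASA6 fell by 6.48 on the log2 scale (edgeR adjusted p = 1.91e-11), DRM1 by 3.72 (adjusted p = 8.29e-09) and DRM2 by 2.78 (adjusted p = 8.3e-06). DRM2 rose at Deacc4 (1.44, adjusted p = 0.0122 by edgeR), where DRM1 had 0.67 (adjusted p = 0.143) and GASA6 −0.14 (adjusted p = 0.803).

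Of 14 leaf ageing genes, NAP and SEN1 belong to the 54. Among the 12 others, 5 fell and none rose at ACC (35.3% and 35.1% of all genes tested). At Deacc2 9 rose (19.9% of all) and at Deacc4 10 rose (19.4% of all). None fell at either time (20.8% and 21% of all). PAO, which opens the chlorophyll ring, fell at ACC (−0.73, edgeR adjusted p = 1.78e-06) and rose at Deacc2 (0.47, adjusted p = 0.00186). The salicylate list of 20 genes was put together after the 54 were known. Of its 17 genes outside the 54, 6 fell at ACC, a share near the 35.3% of all genes tested, and none rose (35.1% of all). At Deacc2 14 rose (19.9% of all) and at Deacc4 8 rose (19.4% of all). Their medians at ACC, Deacc2 and Deacc4 were −0.58, 1.30 and 0.84. The pathogenesis-related genes PR2 and PR5 rose at Deacc2 by 2.42 and 1.61 (edgeR adjusted p = 0.00291 and 0.00968), with ACC values of 0.58 and 0.87 that did not pass the test. Of 17 autophagy genes none belongs to the 54, and 10 fell and 1 rose at ACC (35.3% and 35.1% of all genes tested). At Deacc2, 7 rose and none fell (19.9% and 20.8% of all), and at Deacc4, 6 rose and none fell (19.4% and 21% of all). Of the 22 tested hypoxia genes, none of them among the 54, 12 fell and 4 rose at ACC (35.3% and 35.1% of all genes tested). At Deacc2 9 fell and 4 rose (20.8% and 19.9% of all), and at Deacc4 12 fell and 4 rose (21% and 19.4% of all). The members of each list were taken out by these same contrasts, so the counts of the other genes describe the lists and do not test them.

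Levels of the 54 genes were then compared between lines, which the choice did not use. In jub1 all 54 genes had a mean level over the 4 conditions below that of Col0, with a median log2 difference of −0.56 (range −1.06 to −0.07), where 51% of all 20679 genes were below 0. None of the 54 was called (edgeR's quasi-likelihood test, adjusted p under 0.05, 0.0339% of all genes called), and 18 (33.3%) had an unadjusted p under 0.05, where 9.39% of all genes did. The fit leaves the experiment number out. With that number as a replicate block, 15 genes were called in jub1, against 7, and none of the 54 was among them. With a block for each number within each condition, chosen after seeing the data, 16 genes were called, and HSPRO2 was the 1 member among them. In mbf1c 52 of the 54 were below Col0, with a median of −0.32 (−1.08 to 0.47), where 43.1% of all genes were below 0. None was called here either (0.029% of all), and 12 (22.2%) had an unadjusted p under 0.05, against 7.96% of all genes. The genes deviate together within groups, so these counts are not counts of independent genes. Without the libraries of replicate 3 the jub1 median was −0.32, and without those of replicate 2 the mbf1c median was −0.62.

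**Figure D4:**
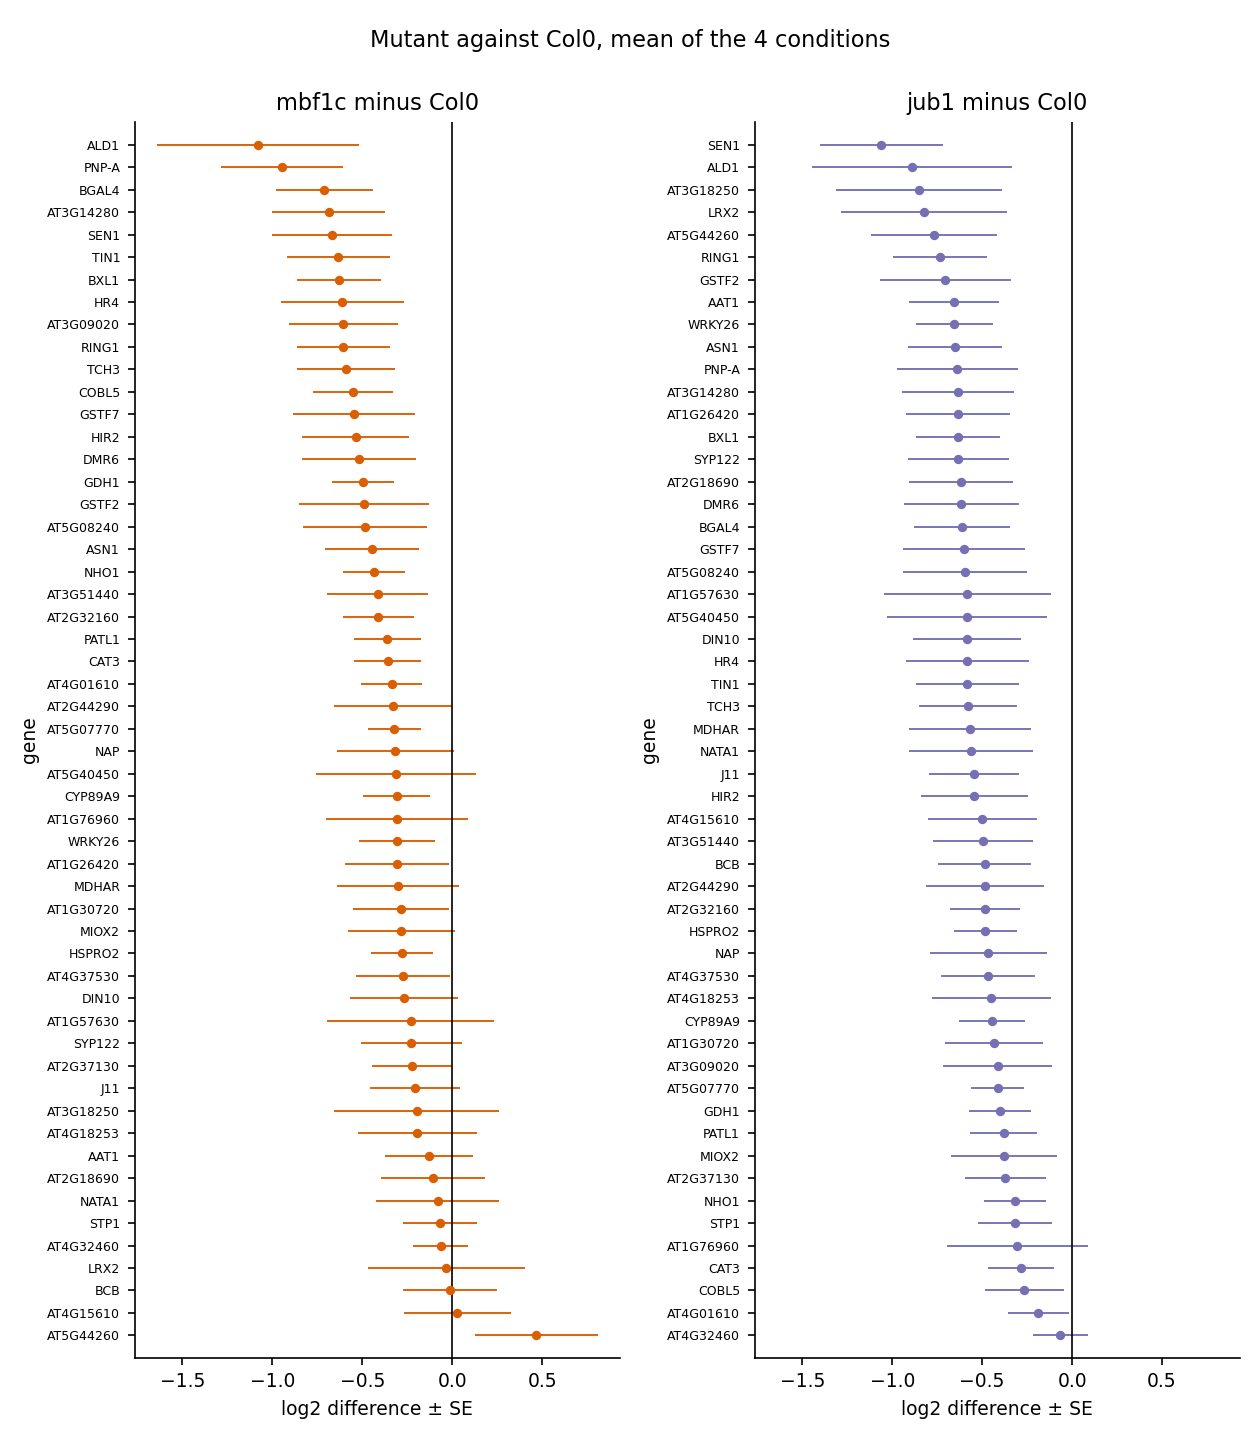
Log2 difference from Col0 over the 4 conditions (x axis, edgeR, bars ± SE) for each of the 54 genes (y axis, sorted) in mbf1c on the left and jub1 on the right. All 54 points lie below 0 in jub1 and 52 in mbf1c, and no difference passed the adjusted threshold.

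SEN1 had the lowest jub1 difference, −1.06 ± 0.34 (SE, edgeR adjusted p = 0.497). It had 2.68, 11.8 and 5.14 CPM in jub1 and 8.35, 12.1 and 9.6 CPM in Col0 at NonA. At Deacc2 it had 10.2, 30.3 and 16.9 CPM in jub1 and 65.4, 47.9 and 14.6 CPM in Col0, and at Deacc4 12.1, 54.4 and 8.21 CPM in jub1 and 41.8, 52.4 and 59.9 CPM in Col0. The 2 lines overlapped at each of these conditions. WRKY26 (−0.65 ± 0.21, adjusted p = 0.497), RING1 (−0.74 ± 0.26, adjusted p = 0.502) and HSPRO2 (−0.48 ± 0.17, adjusted p = 0.502) were among the 18 genes with an unadjusted p under 0.05. HSPRO2 in jub1 against Col0 passed the threshold with the block within each condition (−0.47, edgeR adjusted p = 0.0456) and in none of the other alternatives, whose adjusted p ran up to 0.936. AT4G32460 was nearest to 0, at −0.07 ± 0.15 (adjusted p = 0.863).

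In mbf1c the lowest differences belonged to ALD1 (−1.08 ± 0.56, edgeR adjusted p = 0.619) and PNP-A (−0.94 ± 0.34, adjusted p = 0.619). ALD1 had 0.16, 4.03 and 1.14 CPM in mbf1c and 9.63, 11.1 and 5.25 CPM in Col0 at NonA, where the lines did not overlap. At Deacc2 it had 0.453, 21.8 and 10.2 CPM in mbf1c and 19.9, 32.8 and 39.3 CPM in Col0, and there 1 mbf1c library reached the Col0 range. PNP-A had 5.55, 13 and 4.83 CPM in mbf1c and 23.8, 30.3 and 8.31 CPM in Col0 at NonA. The smallest unadjusted p of the 54 in this line was that of GDH1 (−0.50 ± 0.17, adjusted p = 0.619), and BXL1 (−0.63 ± 0.23) and BGAL4 (−0.71 ± 0.27) had the same adjusted p. The 2 genes above Col0 were AT5G44260 (0.47 ± 0.34, adjusted p = 0.68) and AT4G15610 (0.03 ± 0.30, adjusted p = 0.982).

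By condition, the median difference kept its sign. In jub1 the median over the 54 genes was −0.55 in NonA, −0.70 in ACC, −0.41 in Deacc2 and −0.43 in Deacc4 plants, and in mbf1c −0.35, −0.49, −0.34 and −0.26 in the same order. No member was called at any single condition in either line (edgeR). Of all genes, 0.00967%, 0.00484%, 0.0145% and 0.0193% were called in mbf1c at NonA, ACC, Deacc2 and Deacc4, and 0% in jub1 at each. In mbf1c 5 members at Deacc4 and 1, 2, 1 and 1 in jub1 at the 4 conditions had an unadjusted p under 0.05. Among all genes that share was 4.59% in mbf1c at Deacc4, where the members' was 9.26%. In jub1 it was 1.62%, 0.624%, 1.39% and 3.96% at the 4 conditions, where the members' was 1.85%, 3.70%, 1.85% and 1.85%. DESeq2 called no member in any of these comparisons. Whether the ACC difference itself changed with the line was tested as an interaction. Its median over the 54 was −0.12 in jub1 and −0.12 in mbf1c, and the median interaction for the excess of Deacc2 and Deacc4 over NonA was 0.09 in jub1 and 0.04 in mbf1c. No member and no other gene passed the adjusted threshold for either interaction in either line, and no member had an unadjusted p under 0.05. A line effect on the course of these genes was therefore not detectable in this fit, which leaves the experiment number out, with 3 libraries per group.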

How the data were processed

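RNA of whole rosettes was sequenced in 36 libraries. The submitters' processing notes list STAR 2.6.0c, DESeq2 and the build TAIR10. The deposited files hold whole-number counts of reads per gene in STAR's layout, once without regard to strand and once for either strand. The unstranded counts were used, since 50.4% to 52.0% of stranded counts lay in the first strand column, and 4 summary lines that name no gene were left out (7.04% to 12.8% of reads). Annotation and promoters came from RefSeq's TAIR10.1.

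The set used log2(CPM + 1). Lines were compared with edgeR 4.0.16 in R 4.3.3 on counts of the 20679 genes kept by filterByExpr, with TMM scaling, 1 model of 12 groups, the quasi-likelihood test and Benjamini-Hochberg adjustment over all genes, and the fit was tested on simulated data. DESeq2 1.42.0 was an alternative, as were other scalings, pseudocounts, filters, strand columns, length offsets, thresholds and left-out replicates. The titles number libraries by experiment (Exp 1 to 3) across lines, which is where the pairing comes from. Deviations of same-numbered libraries from their group means correlated with r of 0.288 to 0.751 between mbf1c and Col0 and −0.172 to 0.562 between jub1 and Col0. The block for number within each condition was added after these correlations were seen.

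Genes and lists were chosen with earlier results of these data known; roles, the salicylate list and TTGAC were chosen after the genes were known. Named genes were those with the largest smaller overshoot (12), the deepest ACC value (8), the highest CPM (8), membership in a list or a place near a threshold, and per list the most abundant others. Other members named in the text were chosen after their values were seen. Libraries held 14407060 to 63178347 counts in genes, which limits the precision for genes of few counts such as ALD1 at ACC.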

Additional observations from a re-analysis of the deposited data

Results flagged for a closer look

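Each of the 54 genes was tested at each condition for 1 library standing apart from the other 8 on the log2 scale by Dixon's criterion (0.493 for 9 libraries). Of 216 sets 13 passed, and chance gives about 1 in 20.

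Col0 replicate 3 at ACC was high for 4 genes: SEN1 at 0.902 CPM (next 0.328), BXL1 at 4.83 CPM (next 2.50), CAT3 at 968 CPM (next 561) and PATL1 at 128 CPM (next 82.3). Col0 replicate 2 at NonA was high for ASN1 at 28.1 CPM (next 9.87) and STP1 at 146 CPM (next 101). Col0 replicate 3 at Deacc2 was high for BCB at 405 CPM (next 267) and AT5G08240 at 41.2 CPM (next 20.7). These libraries also stood high for many other genes. Within its condition, Col0 replicate 3 at ACC was the highest library for 29 of the 54 genes and the lowest for 0. Col0 replicate 2 at NonA was highest for 37 and lowest for 0, and Col0 replicate 3 at Deacc2 highest for 23 and lowest for 1.

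The libraries of mbf1c replicate 1 stood apart for 4 genes. ALD1 had 0.453 CPM (next 10.2) and AT4G18253 16.5 CPM (next 42.3) at Deacc2, both low, AT1G76960 had 17.3 CPM (next 70.0) at Deacc4, also low, and LRX2 had 7.05 CPM (next 2.39) at NonA, high. AT2G32160 was low in jub1 replicate 3 at Deacc4, with 14.5 CPM (next 30.3). That library was the lowest at Deacc4 for 30 of the 54 genes and the highest for 0. At Deacc2, mbf1c replicate 1 was the lowest library for 25 and the highest for 7.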

How the results depend on the processing

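The size of the set depended on its thresholds: 118 genes met the rule with a pseudocount of 0.1, 32 with an overshoot threshold of 1 and 107 with 0.6, and 47 to 58 with 1 replicate number left out. With TMM scaling it held 77 genes, 49 of them among the 54, and with RLE scaling 72 and 41.

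Reversed values were ALD1 at Deacc4 in Col0 alone (−0.058) and AT5G40450 at Deacc2 with the length trend taken out (−0.29). In mbf1c, AT4G15610 turned to −0.015 without a filter, −0.021 in the first strand column, −0.39 to 0.18 with 1 replicate left out (the low end without replicate 2), −0.061 with the replicate block, −0.086 with the block within each condition and −0.076 with the block and a length offset. In jub1, AT4G32460 ranged from −0.20 to 0.054 with 1 left out, turning without replicate 2. The cause was not tested.

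The median over the 54 genes ranged from −0.62 to −0.27 in mbf1c and from −0.67 to −0.32 in jub1 with a replicate left out, and was −0.42 and −0.51 with the replicate block. With the block within each condition 1 gene was called in jub1, HSPRO2 (edgeR adjusted p = 0.0456); in every other setting no member was called. Genes called over the 4 conditions numbered 6 in mbf1c (13 by DESeq2, 11 with a length offset, 13 with that offset and the block, 2 to 4 with a replicate left out) and 7 in jub1 (27 by DESeq2, 12 with the offset, 23 with both, 15 with the block, 16 with the block within each condition, 11 in the first strand column, 2 to 4 left out). At single conditions counts stayed between 0 and 6.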
